A study of Mus musculus with 6 samples.

Results

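The DNA replication machinery was examined as 45 genes of the licensing, unwinding and synthesis steps, taken by symbol from a fixed list. The table held 27179 genes measured in long-term haematopoietic stem cells (LT-HSC) of mice with and without induced deletion of Prdm16. All 45 were found in the table and all 45 passed the filter on low values, which left 13018 genes for testing. The cells came from the bone marrow of adult C57BL/6 mice, sorted by the surface profile Lin-, Sca-1+, c-Kit+, CD48-, CD150+, and RNA was sequenced from 6 libraries. The Cko group (Prdm16-Mx1-Cko/Cko; Tg/+, 3 libraries) carried the Mx1-Cre transgene, and the WT group (Prdm16-Mx1-Cko/Cko; +/+, 3 libraries) did not. Mice of both groups carried the conditional Prdm16 alleles, were 8 to 12 weeks old, and received 5 injections of pIpC, a synthetic RNA that induces the Mx1 promoter, 5 weeks before the sort. The Mx1 promoter responds to interferon in many cell types, so deletion is not limited to LT-HSC. The 3 technical replicates of a genotype are portions of cells sorted from the pooled marrow of 5 mice, so the p-values measure the spread between portions of a pool and not between animals.

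Before a cell can copy its genome, the origin recognition complex (ORC) marks origins, and Cdc6 and Cdt1 load the ring-shaped MCM2-7 helicase around the DNA. This licensing takes place in G1 and is blocked afterwards by geminin. In S phase Cdc45, the GINS complex and Mcm10 turn the loaded ring into an active helicase, primase and DNA polymerases alpha, delta and epsilon copy the strands, the clamp PCNA holds the polymerases on the template, and ribonucleotide reductase and thymidylate synthase supply the building blocks. Many of these genes are transcribed under E2F factors as cells leave quiescence, and LT-HSC are known as a mostly quiescent population.

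Libraries held 36747729 to 43743795 reads. The deleted gene, Prdm16 (chromosome 4, 154316122 to 154637360, mm10), had 8.74, 9.04 and 14.7 CPM (reads scaled to library size) in the Cko libraries, against 40.3, 50.5 and 31.7 CPM in the WT libraries, a difference of -1.93 on the log2 scale (SE 0.27, limma adjusted p = 0.00829). That call was lost without a variance trend (adjusted p = 0.0967) and without Cko replicate 2 (0.0508). Reads from deleted and retained exons are counted together. All 14 listed LT-HSC markers were read in both groups, with a summed level of 3457 to 3711 CPM in Cko and 3535 to 3710.3 CPM in WT. The most abundant, Kit, averaged 867 ± 105 CPM in Cko and 977 ± 57.5 CPM in WT (SD, n = 3 each). Some lists of markers of other blood cells, mature or precursor, differed between the groups. Neutrophil markers summed to 599.0 to 807.5 CPM in Cko and 107.3 to 112.0 CPM in WT, with 8 of 12 tested markers called higher (S100a9 at 179.9 ± 37.5 and S100a8 at 158 ± 40.5 CPM in Cko, against 25.1 ± 3.80 and 21.2 ± 3.42 CPM in WT) and Mmp8 at 0 in WT. Granulocyte precursor markers summed to 562.4 to 576.5 CPM in Cko and 207.6 to 217.2 CPM in WT, with 3 of 5 called higher (Mpo at 254 ± 18.7 CPM in Cko, against 1.95 ± 1.83 CPM in WT; Prtn3, not called, at 211 ± 11.8 CPM in Cko, against 209 ± 7.07 CPM in WT). Those of eosinophils, basophils and mast cells summed to 585.2 to 682.3 CPM in Cko and 13.83 to 18.04 CPM in WT, with 6 of 8 called higher (Prg2 at 382 ± 44.4 and Epx at 101 ± 5.15 CPM in Cko) and Epx, Ear1, Mcpt8, Prss34, Cd200r3 and Ms4a2 at 0 in WT. B and plasma cell markers summed to 456.7 to 484.8 CPM in Cko and 234.7 to 279.9 CPM in WT (1 of 7, Igkc, called higher at 118 ± 5.26 CPM in Cko; 6 higher and 1 lower at an unadjusted p under 0.05, 2 called by voom; the lower one, Cd79b, at 45.6 ± 5.72 CPM in Cko and 61.0 ± 2.86 CPM in WT without overlap, adjusted p = 0.334; Igkc and Ms4a1 among those at 0 in WT; Xbp1, not called, at 230.2 ± 18.2 CPM in Cko and 194 ± 19.5 CPM in WT). Erythroid markers summed to 99.93 to 135.7 CPM in Cko and 80.80 to 90.90 CPM in WT (0 of 8 called, 6 higher at an unadjusted p under 0.05, 0 by voom; Hba-a1 at 0 in WT), led by Tfrc (53.4 ± 14.8 CPM in Cko and 45.7 ± 11.2 CPM in WT) and Car1 (33.8 ± 7.21 CPM in Cko and 19.7 ± 8.80 CPM in WT). Macrophage markers summed to 40.96 to 61.61 CPM in Cko and 14.90 to 38.70 CPM in WT (0 of 5 called, 2 higher at an unadjusted p under 0.05, 1 by voom; Adgre1, Marco and Mrc1 at 0 in WT), led by Cd68 (15.0 ± 3.22 CPM in Cko and 16.1 ± 8.83 CPM in WT) and Csf1r (11.9 ± 9.53 CPM in Cko and 0.950 ± 1.25 CPM in WT). T and NK markers summed to 93.04 to 117.5 CPM in Cko and 74.80 to 102.0 CPM in WT (0 of 3 called, 0 at an unadjusted p under 0.05, 0 by voom). Nearly all of it was Nkg7 (95.8 ± 8.72 CPM in Cko and 82.7 ± 8.14 CPM in WT), followed by Klrb1c (2.57 ± 3.20 CPM in Cko and 4.75 ± 5.45 CPM in WT). Cd3d, Cd3g and Gzma were at 0 in WT, and Cd3e was at 0 in both groups. Several genes listed at 0 in WT also held few reads in the Cko libraries. Cd3d had 52, 2 and 0 reads there, Cd3g 39, 0 and 98, and Marco 0, 24 and 0. Cd200r3 had 59, 0 and 44 reads in Cko, Ms4a2 0, 6 and 69, and Hba-a1 3, 6 and 3. The part of these other cells in the values below was not tested. In bulk RNA, fewer cells in S phase and less transcript per cell cannot be told apart.

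No replication gene changed by the test used, and most differences were small. Of the 45 genes, 0 were called higher and 0 lower in Cko (limma, Benjamini-Hochberg adjusted p below 0.05), where 0.699% of all tested genes were called, 0.407% higher and 0.292% lower. The lowest adjusted p was 0.360, for Mcm7. Voom on the recovered reads, a weighted form of the same test, also called 0. The median log2 fold change of the 45 was 0.03, against 0.003 for all tested genes, with 25 values above and 20 below 0 and a range of -0.33 (Tk1) to 0.55 (Orc1). Without adjustment, p was under 0.05 for 6 genes, 4 higher (Mcm4, Orc1, Orc4 and Cdc45) and 2 lower (Mcm7 and Tk1). These are 13.3% of the 45, near the 10.3% of all tested genes at that level (5.58% higher and 4.72% lower). In 8 genes (17.8%) the Cko and WT libraries did not overlap, 5 higher and 3 lower, again near the 16.5% of all tested genes (8.52% higher and 8.01% lower). The number at an unadjusted p under 0.05 depended on single libraries. It was 10 without Cko replicate 2, 3 without Cko replicate 1 or 3, 2 without WT replicate 1 or 3, and 6 without WT replicate 2.

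The intervals give the precision of each difference between these libraries. They rest on the spread between portions of a pool, so they do not bound a difference between animals of the genotypes. For 44 of the 45 genes the 95% interval of the fold change, taken from the same fit and not adjusted for the number of genes, lay within a 2-fold change in either direction, and for 35 within 1.5-fold. The exception at 2-fold was Orc1, with an interval of 0.08 to 1.01 on the log2 scale. Among all tested genes 70.1% of intervals lay within 2-fold, and among the 7958 tested genes with mean levels between those of the lowest and highest replication genes (23.3 to 925 CPM) 96.3% did. The median standard error was 0.13 for the replication genes, 0.15 for those 7958 genes and 0.20 for all tested genes. Their precision is therefore close to that of other genes at their level.

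**Figure D1:**
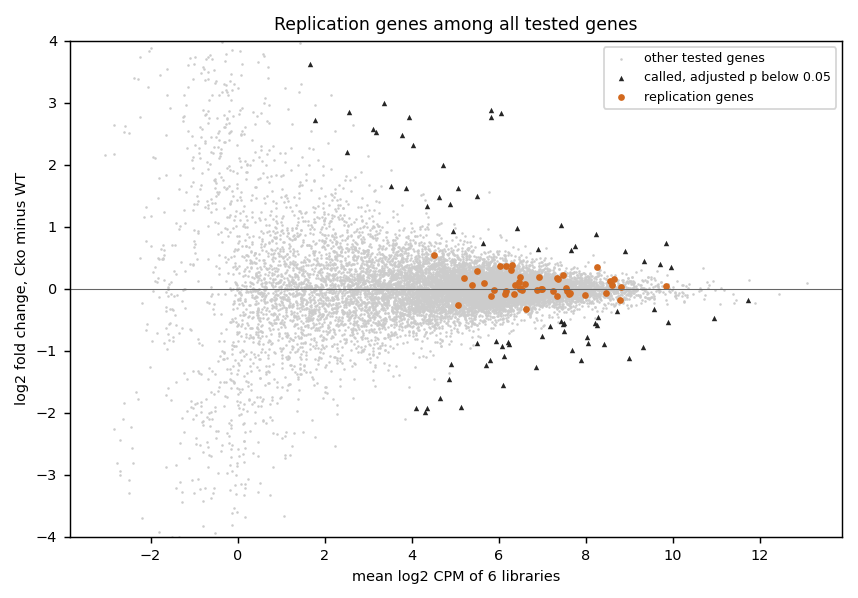
Log2 fold change (Cko minus WT) against mean log2 CPM of the 6 libraries, for the replication genes (orange), other genes called at adjusted p below 0.05 (black triangles) and the remaining tested genes (grey); 152 genes beyond 4 on the log2 scale in either direction are not drawn. The replication genes lie between -0.33 and 0.55, inside the cloud of genes that were not called.

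Replication transcripts were abundant in both groups. Levels of different genes are compared here as CPM per kilobase of exon (CPM/kb, union of exons in GENCODE M21). The median replication gene had 50.1 CPM/kb over the 6 libraries, against 11.5 CPM/kb for the tested genes with a length. Of the 45 genes, 43 lay above the median tested gene and 13 in the top 10%. Mcm6 was the highest (215 CPM/kb in Cko and 208 CPM/kb in WT), followed by Pcna (162 CPM/kb in Cko and 174 CPM/kb in WT). Orc1 (9.14 CPM/kb in Cko and 6.33 CPM/kb in WT) and Mcm10 (8.69 CPM/kb in Cko and 8.38 CPM/kb in WT) were the lowest. The proliferation marker Mki67 was read at 226, 224 and 210.1 CPM in Cko and 221, 235 and 217 CPM in WT, values that overlap. This gene was picked after its values were seen and does not stand for its list. Of the 25 mitosis and proliferation markers described below, 10 had log2 fold changes above 0 and 15 below. At an unadjusted p under 0.05 (limma), 0 of them were higher and 3 lower.

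**Figure D2:**
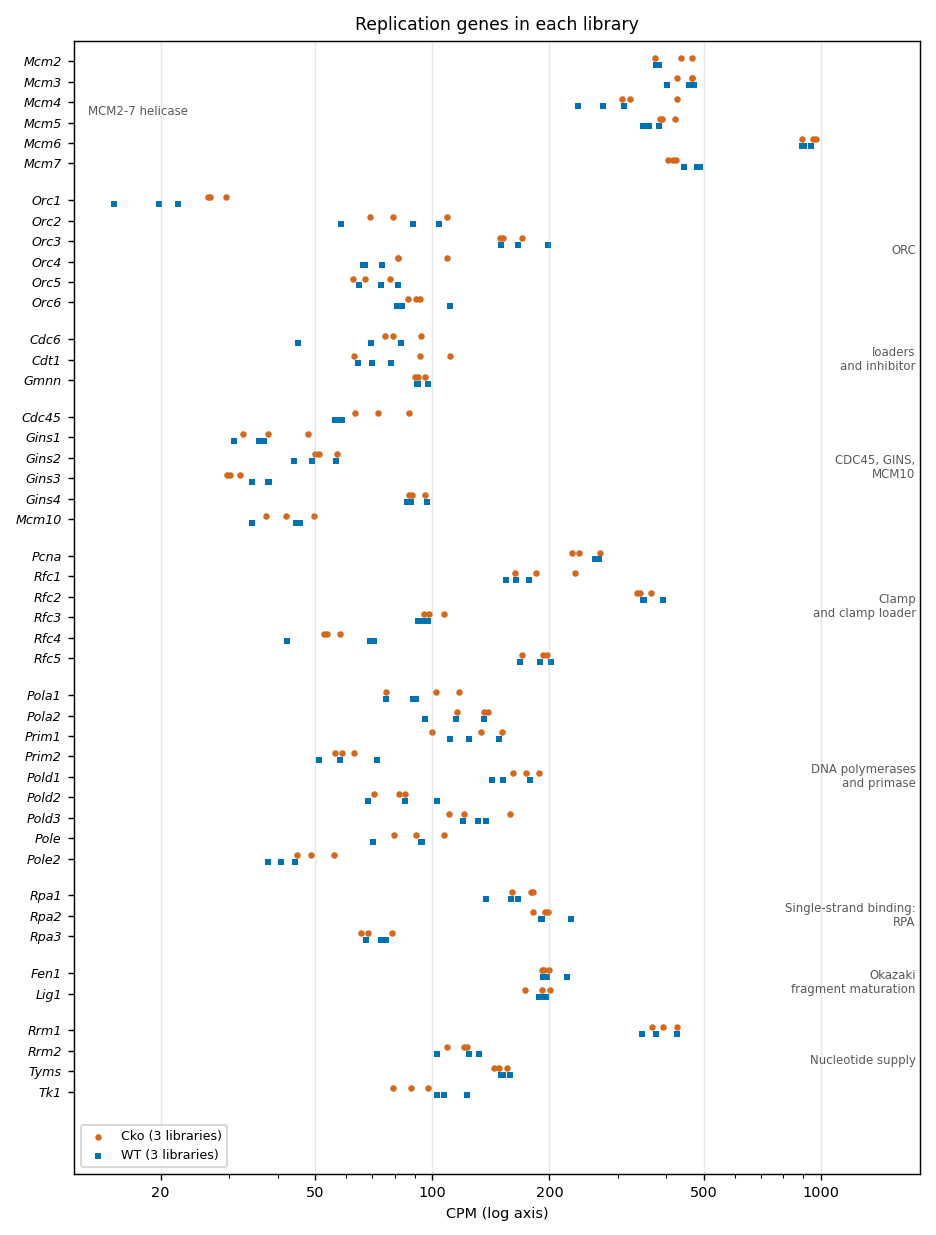
CPM (log axis) of each of the 45 genes in the 3 Cko libraries (orange circles, upper row of each gene) and the 3 WT libraries (blue squares, lower row), in functional groups. In 37 genes the points of the groups overlap, and Mcm6 stands highest in all 6 libraries.

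Promoters were examined because these genes are textbook E2F targets. The RefSeq promoter table of GRCm38.p6 (250 bases before to 50 after a start site) held 45 windows for 37 of the 45 genes. A start site need not be the outer end of the gene. The Orc1 window lies inside the span of the gene, which begins at 108575705. Gins1, Gins2, Gins4, Gmnn, Mcm4, Pole, Prim2 and Rfc2 had no entry. An E2F word, here TTTCCCGC, TTTGGCGC, TTTGCCGC or TTTCGCGC on either strand, was found in 15 windows of 15 genes. That is 33.3% of the replication windows, against 2.26% of all 32851 windows, and 40.5% of the 37 genes, against 4.78% of the 10119 tested genes with a window. The CCAAT box was found in 62.2% of the 37 genes and 43.0% of those tested genes, and the CHR word (TTTGAA or TTCGAA) in 18.9% of the 37 genes and 16.6% of those tested genes. A match is a description of the letters and not of a bound site. The 15 genes with an E2F word had a median log2 fold change of 0.08 (10 above and 5 below 0) and the 22 without had -0.01 (10 above and 12 below). The windows of MCM genes that hold a word, and that of Orc1, the gene with the largest difference, are shown 5′ to 3′ on the gene's strand, with the E2F words in capitals. In Mcm5, and at the upstream site of Mcm6, words on opposite strands overlap and run on as a longer stretch of capitals.
Mcm3 (chr1:20820263-20820562, minus strand, GRCm38.p6): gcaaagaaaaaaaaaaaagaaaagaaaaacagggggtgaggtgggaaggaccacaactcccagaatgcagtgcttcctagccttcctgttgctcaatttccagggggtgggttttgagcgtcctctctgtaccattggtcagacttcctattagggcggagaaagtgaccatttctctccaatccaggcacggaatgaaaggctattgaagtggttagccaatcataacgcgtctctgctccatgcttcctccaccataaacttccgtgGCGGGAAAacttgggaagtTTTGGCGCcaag
Mcm5 (chr8:75109259-75109558, plus strand, GRCm38.p6): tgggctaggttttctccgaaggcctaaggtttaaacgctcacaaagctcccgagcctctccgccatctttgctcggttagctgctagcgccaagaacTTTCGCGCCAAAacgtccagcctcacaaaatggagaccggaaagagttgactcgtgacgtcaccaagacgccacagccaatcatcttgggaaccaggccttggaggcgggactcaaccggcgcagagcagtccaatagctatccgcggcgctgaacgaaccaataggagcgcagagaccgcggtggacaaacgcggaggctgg
Mcm6 (chr1:128359656-128359955, minus strand, GRCm38.p6): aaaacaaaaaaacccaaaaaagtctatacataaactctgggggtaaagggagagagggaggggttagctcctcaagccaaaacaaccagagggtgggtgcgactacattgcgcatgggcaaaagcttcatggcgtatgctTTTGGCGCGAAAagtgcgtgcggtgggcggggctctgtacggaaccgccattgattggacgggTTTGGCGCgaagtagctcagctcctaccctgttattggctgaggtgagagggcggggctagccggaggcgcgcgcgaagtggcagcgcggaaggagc
Mcm7 (chr5:138171834-138172133, minus strand, GRCm38.p6): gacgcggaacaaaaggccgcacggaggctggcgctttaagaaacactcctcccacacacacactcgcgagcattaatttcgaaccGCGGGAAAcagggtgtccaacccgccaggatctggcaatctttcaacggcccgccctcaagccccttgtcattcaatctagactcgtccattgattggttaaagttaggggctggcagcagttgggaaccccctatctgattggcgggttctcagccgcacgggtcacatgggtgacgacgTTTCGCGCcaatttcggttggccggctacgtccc
Orc1 (chr4:108579204-108579503, plus strand, GRCm38.p6): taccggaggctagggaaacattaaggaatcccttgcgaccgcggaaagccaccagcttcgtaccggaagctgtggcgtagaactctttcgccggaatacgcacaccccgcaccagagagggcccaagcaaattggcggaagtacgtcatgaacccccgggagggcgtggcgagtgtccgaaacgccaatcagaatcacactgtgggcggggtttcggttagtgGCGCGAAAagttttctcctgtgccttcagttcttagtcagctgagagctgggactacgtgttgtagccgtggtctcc

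**Figure D3:**
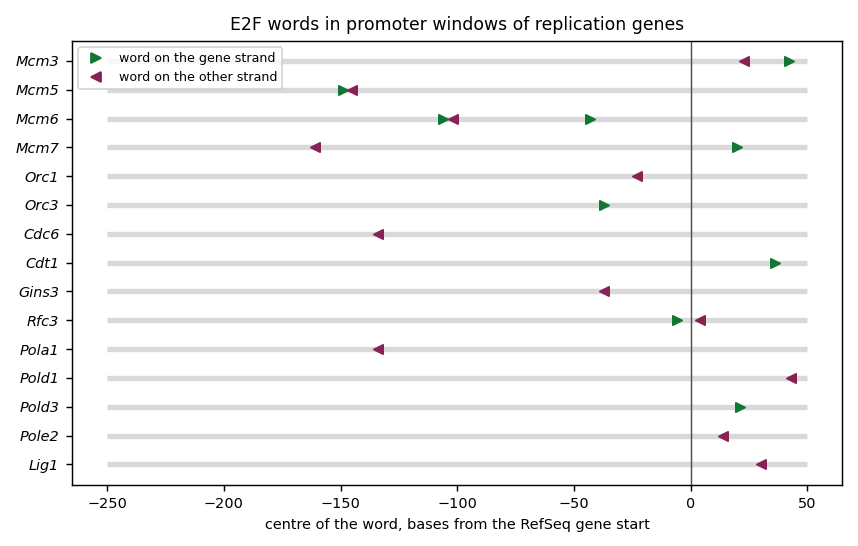
Centres of E2F words (triangles, pointing right on the gene strand, left on the other), for the 15 replication genes whose 300-base windows hold a word. Positions are in bases from the start site of each window, which is not always the outer end of the gene. Mcm6 has 3 matches, Mcm3, Mcm5, Mcm7 and Rfc3 have 2 each, and the other genes 1 each.

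The ORC genes Orc1 and Orc4 had the highest log2 fold changes of the 45 with all libraries, and the other ORC genes lay closer to 0. None passed the test. Orc1 (chromosome 4, 108575705 to 108616030), the subunit whose level rises towards S phase in human cells, had 29.4, 26.8 and 26.5 CPM in Cko, against 15.2, 22.2 and 19.8 CPM in WT. All Cko values lay above all WT values, with a difference of 0.55 on the log2 scale (SE 0.21, adjusted p = 0.393). Orc4 (chromosome 2, 48902824 to 48952902), an ATP-binding ORC subunit, had 109, 81.6 and 81.7 CPM in Cko, against 67.0, 74.3 and 66.2 CPM in WT. The groups did not overlap, and Cko replicate 1 was the highest (0.38, SE 0.14, adjusted p = 0.394). The difference was 0.24 without Cko replicate 1, and 0.24 to 0.45 on leaving out any library. Orc3, a core subunit and the ORC gene with the highest level per kilobase, had 169.6, 149.5 and 152 CPM in Cko, against 150.0, 198 and 166 CPM in WT, which overlap. Orc2, Orc5 and Orc6, the other subunits, had overlapping groups and log2 fold changes of 0.05, -0.09 and -0.01. Orc2 had the widest interval of the 3, from -0.45 to 0.56. Exons of Orc4 share bases with those of Acvr2a over 9.48% of their length, of Orc1 with Gm12743 over 11.9% and of Orc2 with Nif3l1 over 24.0%. These partners lie on the opposite strand, and whether reads were counted by strand is not known here.

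The helicase loaders had higher means in Cko with overlapping values. Cdc6, the ATPase that brings MCM2-7 to ORC, had 93.7, 79.0 and 75.4 CPM in Cko, against 45.1, 83.1 and 69.5 CPM in WT. WT replicate 1 was low, and the difference on the log2 scale was 0.37 (SE 0.21, adjusted p = 0.581). It was 0.12 without that library and 0.56 without WT replicate 2 (limma adjusted p = 0.868 and 0.470), with adjusted p of 0.470 to 0.868 on leaving out any library. Cdt1, the loading partner of Cdc6, averaged 89.0 ± 24.5 CPM in Cko and 70.9 ± 6.84 CPM in WT (SD, n = 3 each). Gmnn, which encodes geminin, the inhibitor of Cdt1, had 90.3, 95.7 and 92.0 CPM in Cko, against 97.6, 92.0 and 91.4 CPM in WT. The geminin values spanned a narrow range and overlapped, with an interval of -0.25 to 0.22 on the log2 scale.

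Subunits of the MCM2-7 ring, which are used in equal number in the complex, did not all lean the same way. Mcm7 (chromosome 5, 138164583 to 138172111) had 417, 404 and 423 CPM in Cko, against 479.8, 444 and 489 CPM in WT. Every Cko value was below every WT value, with a log2 difference of -0.18 (SE 0.07, adjusted p = 0.360). Mcm4 (chromosome 16, 15623897 to 15637400) had 322, 308 and 426 CPM in Cko, against 274, 237 and 312 CPM in WT. Cko replicate 2 lay below WT replicate 3, and Cko replicate 3 was the highest (0.35, SE 0.14, adjusted p = 0.396). The difference was 0.21 without Cko replicate 3, and 0.21 to 0.45 on leaving out any library. Mcm5 (chromosome 8, 75109468 to 75128439) had 389, 384 and 421 CPM in Cko, against 360.1, 348 and 383 CPM in WT, 2 groups that only just do not overlap (0.13, SE 0.07, adjusted p = 0.571). Mcm2 had 437, 374 and 465 CPM in Cko, against 377, 377 and 383 CPM in WT, with Cko replicate 2 below all WT libraries. Its difference of 0.16 was 0.25 without Cko replicate 2 and 0.09 without Cko replicate 3. Mcm6 had 953, 895 and 969 CPM in Cko, against 939, 902 and 891 CPM in WT, and its interval of -0.07 to 0.16 was the narrowest of the 45. Mcm3 averaged 453 ± 23.3 CPM in Cko and 443 ± 36.9 CPM in WT (SD, n = 3 each). Summed over the 6 subunits, the level was 2985, 2791 and 3169.8 CPM in Cko, against 2830.3, 2765 and 2929 CPM in WT, which overlap.

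The ratio of Mcm4 to Mcm7 was calculated after their values were seen. Per kilobase it was 0.638, 0.629 and 0.831 in Cko, against 0.471, 0.440 and 0.527 in WT, so the groups did not overlap. The pair had the highest and the lowest log2 fold change of the MCM2-7 genes (0.35 and -0.18), so a separation is partly built into the choice. The ratio was given no test. Mcm7 is the host gene of a microRNA cluster, and its exons share 10.8% of their length with Ap4m1 and 2.16% with Cops6 on the opposite strand.

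**Figure D4:**
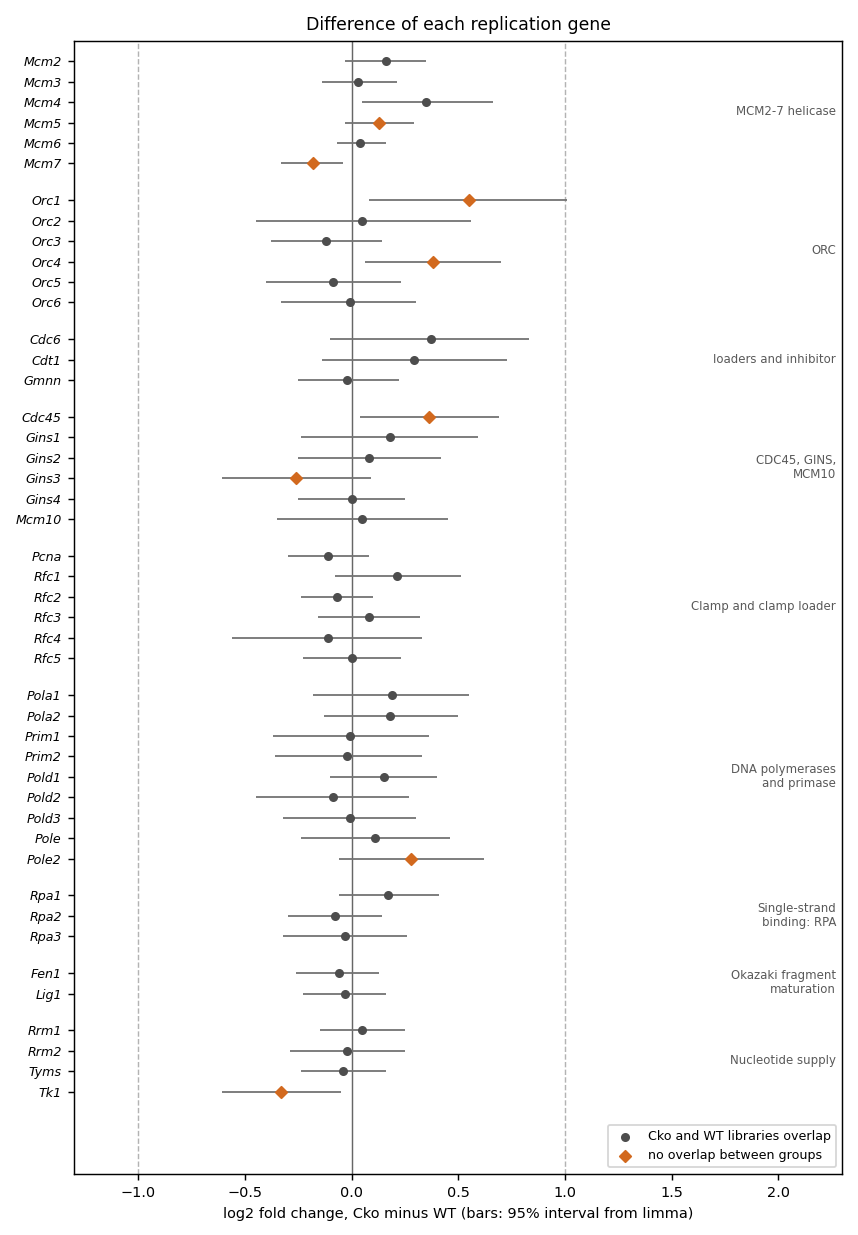
Log2 fold change (Cko minus WT) of each of the 45 genes with its unadjusted 95% interval from limma; orange diamonds mark the 8 genes whose Cko and WT libraries do not overlap, and dashed lines a 2-fold change. All intervals except that of Orc1 (upper end 1.01) lie inside the dashed lines.

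Among genes that activate the helicase, Cdc45 (chromosome 16, 18780447 to 18811972), which joins MCM2-7 in the active helicase, had 87.2, 63.2 and 72.6 CPM in Cko, against 56.2, 57.5 and 58.6 CPM in WT. The Cko libraries were spread more widely and all lay above WT (0.36, SE 0.15, adjusted p = 0.423), with a difference of 0.24 without Cko replicate 1, the highest. Gins3 (chromosome 8, 95633559 to 95645059), a subunit of the GINS tetramer, had 32.0, 29.7 and 30.1 CPM in Cko, against 37.8, 38.1 and 34.3 CPM in WT, without overlap (-0.26, SE 0.16, adjusted p = 0.597). Its partner Gins4 had 87.2, 95.6 and 88.7 CPM in Cko, against 86.2, 88.2 and 96.8 CPM in WT, and these overlap. Mcm10, which acts with Cdc45 and GINS at origin firing, had 49.7, 42.0 and 37.4 CPM in Cko, against 45.7, 44.5 and 34.3 CPM in WT, also with overlap. Gins1 and Gins2, the remaining GINS subunits, had log2 fold changes of 0.18 (interval -0.24 to 0.59) and 0.08 (interval -0.25 to 0.42). Gins2 exons share 70.7% of their length with Gse1 on the opposite strand, so its level is the least certain of this group.

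The polymerase and primase genes differed little. Pole2 (chromosome 12, 69201773 to 69228205), the second subunit of the leading-strand polymerase epsilon, had 56.0, 44.9 and 48.7 CPM in Cko, against 37.8, 40.7 and 44.4 CPM in WT, without overlap (0.28, SE 0.15, adjusted p = 0.565). Pole, its catalytic subunit, had 107, 91.0 and 79.9 CPM in Cko, against 70.2, 94.2 and 93.7 CPM in WT, with overlap and with WT replicate 1 lowest. Prim1, the catalytic primase subunit and the highest of this group per kilobase, had 99.8, 151 and 133 CPM in Cko, against 148, 124 and 111 CPM in WT, where the spread within each group exceeded the difference of the means. For the other 6 genes, which encode subunits of polymerase alpha (Pola1, Pola2), primase (Prim2) and the lagging-strand polymerase delta (Pold1, Pold2, Pold3), log2 fold changes ran from -0.09 (Pold2) to 0.19 (Pola1), and all 6 overlapped between groups.

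The clamp gene Pcna had 229, 270.2 and 238 CPM in Cko, against 263, 262 and 268 CPM in WT, with Cko replicate 2 above all WT libraries. Rfc1, the large subunit of the clamp loader replication factor C, had 185, 163 and 233 CPM in Cko, against 155, 164 and 177 CPM in WT, which overlap. Its difference of 0.21 was 0.07 without Cko replicate 3 and 0.33 without Cko replicate 2. The small loader subunits Rfc2, Rfc3, Rfc4 and Rfc5 had log2 fold changes of -0.07, 0.08, -0.11 and 0.003, each with overlapping groups. Of replication protein A, which coats single-stranded DNA, Rpa1 had 181, 159.8 and 179.5 CPM in Cko, against 159, 137 and 166 CPM in WT, and Rpa2 had 182, 195 and 198 CPM in Cko, against 227, 191 and 190.2 CPM in WT. Both overlapped, as did Rpa3 (-0.03, interval -0.32 to 0.26). The flap endonuclease gene Fen1, which trims Okazaki fragments, had 191, 194 and 199.6 CPM in Cko, against 193, 197 and 222 CPM in WT, and the ligase gene Lig1, which joins them, 200.3, 191 and 173 CPM in Cko, against 196, 188 and 192 CPM in WT. Both pairs of groups overlapped, and 78.8% of the exon length of Fen1 is shared with the antisense gene Gm10143.

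Of the nucleotide supply genes, Tk1 (chromosome 11, 117815519 to 117826087), the cytosolic thymidine kinase of the salvage pathway, had 88.2, 97.6 and 79.2 CPM in Cko, against 107, 103 and 123 CPM in WT. All Cko values lay below all WT values, and the log2 difference of -0.33 (SE 0.13, adjusted p = 0.398) was the lowest of the 45. Rrm1, the large subunit of ribonucleotide reductase, had 367, 393 and 426 CPM in Cko, against 346, 376 and 425 CPM in WT. Tyms, thymidylate synthase, had 156, 144 and 148 CPM in Cko, against 150.1, 158 and 152 CPM in WT. Rrm2, the small subunit of the reductase, averaged 118 ± 7.19 CPM in Cko and 119 ± 14.7 CPM in WT (SD, n = 3 each). These 3 genes overlapped between the groups.

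Summed over functional groups, levels overlapped between Cko and WT in all 9 groups. The loaders with geminin had the highest ratio of Cko to WT means, 1.15 (264.4 ± 29.1 CPM in Cko and 230.4 ± 15.3 CPM in WT, SD, n = 3 each), and the Okazaki fragment genes the lowest, 0.967 (383.1 ± 9.76 CPM in Cko and 396.3 ± 15.7 CPM in WT). Over all 45 genes the sum was 7797, 7454 and 7956 CPM in Cko, against 7394, 7344 and 7777 CPM in WT. Cko replicate 2 was the lowest Cko library for 21 of the 45 genes and WT replicate 1 the lowest WT library for 20. The same counts were not made over all tested genes, so they are not known to be particular to the replication genes.

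**Figure D5:**
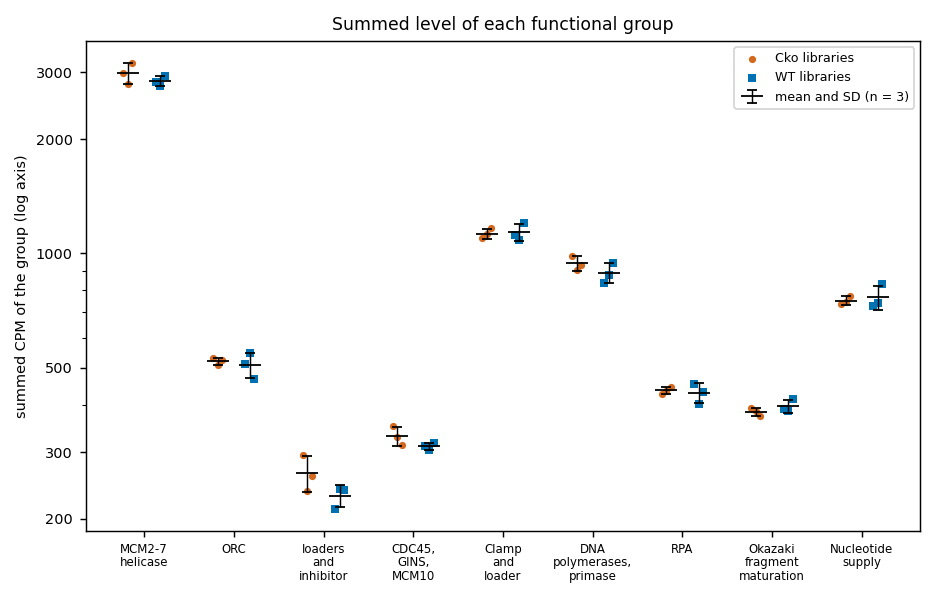
Summed CPM (log axis) of the genes in each functional group, by library (Cko, orange circles, left; WT, blue squares, right), with mean and SD of 3 libraries. The Cko and WT points of every group overlap, and the MCM2-7 sum is the highest at 2765 to 3169.8 CPM.

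Of the 45 genes, 13 start within 1000 bases of a tested protein-coding gene on the opposite strand, at distances of 13 to 769 bases, so that a stretch of promoter DNA may be common to the pair. Of these 13 neighbours 0 were called by limma, 0 had an unadjusted p under 0.05 and 0 were called by voom, and their log2 fold changes ran from -0.31 to 0.20. Prkdc, the DNA-dependent protein kinase gene beside Mcm4, had -0.02 (SE 0.12), where Mcm4 had 0.35. Prpf38a, a splicing factor gene 87 bases from the start of Orc1, had 0.10 (SE 0.14), where Orc1 had 0.55. Ufd1 beside Cdc45 had -0.12 (SE 0.13) and Afmid beside Tk1 had 0.07 (SE 0.40), where Cdc45 had 0.36 and Tk1 -0.33. The difference within a pair was not tested. In all, 17 of the 45 genes share exon bases with another gene and 13 share over 5% of their exon length, among them Rfc2 with Lat2 (19.1%), Rfc5 with Wsb2 (15.4%) and Rfc4 with Eif4a2 (13.4%) on the opposite strand and Pole2 with Gm49384 (14.4%) on its own strand, so their levels are less certain.

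Other genes of the pathway were described from lists of the same kind, and none of their members was called (limma, and 0 by voom). Among all tested genes, 5.58% were higher and 4.72% lower at an unadjusted p under 0.05. Of 31 further fork and origin-firing factors, 0 were called, 1 was higher at an unadjusted p under 0.05, and the median log2 fold change was 0.002. In this list Ddb1, part of the ubiquitin ligase that degrades Cdt1, had 356 ± 48.8 CPM in Cko and 287 ± 17.0 CPM in WT without overlap (0.30, limma adjusted p = 0.333). Donson, a fork protein, had 40.5 ± 8.63 CPM in Cko and 29.1 ± 6.75 CPM in WT with overlap (0.48, limma adjusted p = 0.507, SD, n = 3 each). Of 25 further nucleotide supply genes 0 were called and 3 had an unadjusted p under 0.05 (2 higher, 1 lower), with a median of 0.07. Dck, the deoxycytidine kinase of the salvage pathway, had 93.7 ± 5.68 CPM in Cko and 123 ± 11.8 CPM in WT without overlap (-0.39, limma adjusted p = 0.253). Ctps, CTP synthase, had 119 ± 18.9 CPM in Cko and 91.4 ± 8.07 CPM in WT, also without overlap (0.37, limma adjusted p = 0.395). Among 15 genes of replication-coupled chromatin assembly 0 were called and 2 were higher at an unadjusted p under 0.05. In this list 12 values lay above 0, with a median of 0.12, where 50.5% of all tested genes lay above 0. Rbbp4, a histone chaperone subunit, had 631 ± 20.5 CPM in Cko and 524 ± 55.4 CPM in WT (0.27, limma adjusted p = 0.253). Hat1, a histone acetyltransferase, had a difference of 0.29 (limma adjusted p = 0.393). Neither gene overlapped between the groups.

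Mitosis and proliferation markers and G1/S regulators, which report on the rest of the cell cycle, were not called either (0 of 25 and 0 of 30, medians of -0.04 and -0.01). At an unadjusted p under 0.05, 0 proliferation markers were higher and 3 lower, and 2 G1/S regulators were higher and 3 lower. Among all tested genes, 5.58% were higher and 4.72% lower at that level. The summed proliferation markers were 2769, 2939 and 2974 CPM in Cko, against 3056, 3026 and 3038 CPM in WT, with all Cko libraries below all WT libraries. That sum was compared after its values were seen and was given no test. Its 25 genes were mixed in direction, with 10 log2 fold changes above 0 and 15 below. Birc5, the chromosomal passenger protein survivin, had 97.6, 101 and 105 CPM in Cko, against 130.1, 131 and 120.4 CPM in WT, without overlap (-0.33, SE 0.10, limma adjusted p = 0.281). Top2a, the topoisomerase of dividing cells, had 283, 370.1 and 304 CPM in Cko, against 381, 368 and 381 CPM in WT, and Cko replicate 2 lay among the WT libraries (-0.25, adjusted p = 0.414). Ccnd1, cyclin D1, which drives entry into the cycle, had 27.1, 40.3 and 29.8 CPM in Cko, against 52.5, 49.1 and 63.6 CPM in WT, without overlap. This was the lowest unadjusted p of the 5 pathway lists (log2 fold change -0.78, SE 0.19, adjusted p = 0.149). Rb1, the retinoblastoma repressor of E2F factors, had 53.1, 43.5 and 55.0 CPM in Cko, against 16.2, 43.2 and 30.9 CPM in WT. The groups only just did not overlap, and WT replicate 1 was low (0.85, SE 0.31, limma adjusted p = 0.367). E2f1 had 68.1, 54.8 and 61.2 CPM in Cko, against 63.9, 60.3 and 57.0 CPM in WT, which overlap.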

How the data were processed

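The authors deposited log2 values for 27179 genes identified by NCBI gene ID, made, per the submitters' processing notes, with FastQC, HISAT2, featureCounts, limma and build mm10; tool versions and the strand and multi-mapping settings are not known here. Undoing log2((reads + 0.5) / effective size) in CPM gave whole reads for 100.0% of values (tolerance 0.01). CPM are recovered reads over that size. Symbols (25275 IDs matched, 1904 not) and coordinates came from RefSeq GRCm38.p6, the assembly of mm10, and exon lengths and neighbours from GENCODE M21.

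Genes with a deposited value of at least 1 CPM in at least 3 of 6 libraries were fitted in limma 3.58.1 (R 4.3.3; lmFit, eBayes with trend) as Cko minus WT, with Benjamini-Hochberg adjustment over all 13018. Members and gene lists were chosen with earlier results of these data known. Values in every library are given for the 12 members with the smallest p, those without overlap, the highest and lowest per kilobase of each functional group, and Prdm16; for each pathway list the 2 genes with the smallest p are named, and for each marker list the 2 with the highest CPM in Cko (some marker genes are not reported here); E2f1, Mki67 and the Mcm4 to Mcm7 ratio were added after their values were seen, as were Cd79b and the marker genes listed at 0. Alternatives were no filter, 5 CPM, centring on medians, quantiles, eBayes without a trend or robust, replicate number as a block, log2(CPM + 1), log2(CPM + 0.1), voom, and leaving out each library. Same-numbered libraries did not deviate together (correlations of -0.01, -0.021 and 0.02), so the numbers were not taken as pairs. Python 3.11.15 with matplotlib 3.10.9 was used for summaries and plots.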

Additional observations from a re-analysis of the deposited data

How the results depend on the processing

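Under all 16 alternatives, including leaving out each library, all 45 replication genes stayed in the test, 0 were called higher and 0 lower, and the lowest adjusted p of any of them was 0.212. Their median log2 fold change stayed between 0.02 and 0.07. With replicate number as a block 0 replication genes were called, and over all genes it called 44 higher and 23 lower, against 53 and 38 without it; no call among the replication genes changed. Over all tested genes the alternatives gave 83 higher and 35 lower without a filter, 49 and 15 without a trend, 105 and 59 with log2(CPM + 1), 69 and 57 with 5 CPM, and 20 to 66 higher and 22 to 31 lower on leaving out a library; the cause was not tested. Without a trend 2 replication genes had an unadjusted p under 0.05 (Orc1 and Gins3), against 6. Differences near 0 changed sign: Gins4 (0.003) was -0.01 with median centring and -0.003 with quantile normalization, and Prim1 (-0.01) was 0.01 with voom. On leaving out a library the log2 fold change ranged from -0.04 to 0.01 for Gmnn, -0.04 to 0.05 for Gins4, -0.08 to 0.15 for Mcm10, -0.14 to 0.16 for Prim1, -0.03 to 0.21 for Pole, -0.12 to 0.01 for Rpa2, -0.08 to 0.03 for Lig1 and -0.02 to 0.13 for Rrm1. The replication genes held 616 to 42323 reads per library.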
